A study of Mus musculus with 3 samples.

Results

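Class I molecules of the major histocompatibility complex were described at the RNA level in leukocytes sorted from tumour-draining lymph nodes of mice, through 33 of the 17857 genes in the deposited count table. The genes were chosen by symbol: every measured H2-K, H2-D1, H2-Q, H2-T, numbered H2-M and H2-Bl gene, the light chain gene B2m, and 9 genes of peptide loading and class I control. They comprise 2 classical heavy chain genes, 20 class Ib heavy chain genes, the pseudogene H2-K2, B2m, and Tap1, Tap2, Tapbp, Tapbpl, Pdia3, Calr, Canx, Erap1 and Nlrc5. The cells came from C57BL/6J mice that carried untreated B16F10 tumours, a melanoma line derived from C57BL/6 mice, on both thighs for 14 days. Nodes were pooled, and cells with surface Ly6C and c-kit and without CD11c were sorted and sequenced as total RNA. The labels give 3 libraries, called replicates 1, 2 and 3, as 1 group with no control population, no added allele and no treatment. How many mice entered a pool is not given in the sources used here, so p-values reflect only how these 3 libraries vary, which may be technical.

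Class I molecules are displayed by almost all nucleated cells. A polymorphic heavy chain pairs with beta-2 microglobulin and holds a short peptide that was cut in the cytosol, pumped into the endoplasmic reticulum by the TAP transporter and fitted by tapasin, ERp57 and calreticulin. CD8 T cells read the classical molecules, whereas the less variable class Ib molecules serve receptors of natural killer (NK) cells, gamma-delta T cells and other lymphocytes. NLRC5, together with interferon-induced factors and NF-kappaB, acts on the promoters of classical genes, of B2m and of several loading genes.

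The proximal promoters of the classical genes H2-K1 and H2-D1 and of the class Ib genes H2-Q4 and H2-Q6 resemble each other. They are shown because these genes had the highest mean levels per kilobase among the heavy chains. The sequences end at the last base before an annotated start. They were taken from RefSeq (GRCm38.p6, the assembly that mm10 represents), which gave a promoter for 24 of the 33 genes. H2-K1 has more than 1 such start. The H2-K1 stretch shown lies inside the annotated gene, which reaches 34000619, and so is not upstream of the whole gene. Capitals mark the NF-kappaB element GGGGATTCCCC, the interferon response element AGTTTCACTTCT, the looser interferon motif GAAANNGAAA, TGACG, which is the core of the cyclic AMP response element, and CCAAT, the NF-Y box, each read on either strand. The motifs were chosen after the sequences were seen. The H2-K1 stretch lies at chr17:34000334-34000463 on the minus strand, those of H2-D1, H2-Q6 and H2-Q4 at chr17:35262918-35263093, chr17:35424672-35424849 and chr17:35379438-35379616 on the plus strand, and that of B2m at chr2:122147543-122147686 on the plus strand.
H2-K1: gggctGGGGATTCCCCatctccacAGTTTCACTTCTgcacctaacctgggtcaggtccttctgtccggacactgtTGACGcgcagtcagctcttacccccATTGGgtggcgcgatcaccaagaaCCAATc
H2-D1: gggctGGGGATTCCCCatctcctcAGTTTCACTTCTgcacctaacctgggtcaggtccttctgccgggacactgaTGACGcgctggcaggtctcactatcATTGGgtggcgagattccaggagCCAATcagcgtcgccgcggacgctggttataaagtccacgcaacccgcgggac
H2-Q6: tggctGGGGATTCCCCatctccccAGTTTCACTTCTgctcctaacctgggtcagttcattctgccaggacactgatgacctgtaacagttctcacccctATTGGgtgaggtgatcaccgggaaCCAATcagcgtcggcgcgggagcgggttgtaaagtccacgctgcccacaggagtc
H2-Q4: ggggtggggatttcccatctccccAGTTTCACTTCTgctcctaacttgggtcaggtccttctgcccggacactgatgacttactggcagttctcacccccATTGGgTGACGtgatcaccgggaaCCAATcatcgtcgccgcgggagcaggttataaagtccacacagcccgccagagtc
B2m: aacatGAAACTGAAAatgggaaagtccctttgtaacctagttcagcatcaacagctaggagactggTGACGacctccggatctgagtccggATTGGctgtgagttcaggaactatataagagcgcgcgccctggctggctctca

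The NF-kappaB element GGGGATTCCCC stood in the 300-base promoter of 9 of 27025 genes, or 10 of 32851 promoters (0.0304%), and 3 of those genes were H2-K1, H2-D1 and H2-Q6. The interferon response element AGTTTCACTTCT stood in the promoter of 10 genes (0.0370% of genes, 0.0335% of promoters), 6 of them H2-K1, H2-D1, H2-Q4, H2-Q6, H2-Q7 and H2-Q10. H2-Q4 and H2-Q7 each differed from the NF-kappaB element at a single base, C8T in H2-Q4 and C11A in H2-Q7, counted from 1 at the 5′ end of the element. Stretches were compared over 130 bases that begin 5 bases before the element or its closest match. H2-K1 was separated from H2-D1 by 17 edits, from H2-Q4 by 18 and from H2-Q6 by 22. The looser motif GAAANNGAAA, present in 3.99% of all genes with a promoter (3.44% of promoters), was found in 4 member genes, B2m, Erap1, H2-T22 and H2-T23. TGACG was found in 12 and CCAAT in 20 of the 24 member genes with a promoter, against 23.05% and 41.1% of all such genes (20.8% and 37.4% of promoters). A match is a description of the letters in this window and not evidence of binding. Enrichment among these related genes was not tested, because the longer motifs were taken from members.

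The libraries held 9077195, 13885509 and 13861430 counts, and no pair agreed within sampling noise (chi-square of 42.7 to 118 per degree of freedom). Levels are in CPM, read counts scaled to library size with TMM factors, divided by the deposited gene length in kilobases wherever genes are set side by side. Genes of the sort were low, with means of 7.03 CPM for Kit, 13.7 CPM for Ly6c1 and 31.4 CPM for Itgax, the gene of the excluded CD11c, and Ly6c2 was uneven (11.5, 121 and 41.2 CPM in replicates 1, 2 and 3). The 8 T cell markers summed to a level that ranged from 3074 to 3793 CPM, and all 8 were called above 50 CPM. The libraries differed in other cell types: the 2 Cd8 genes summed to 26.8, 947 and 258 CPM, the 5 NK markers to 58.3, 494 and 199 CPM, the 6 macrophage markers to 795, 77.7 and 188 CPM, and the 5 erythroid markers to 3674, 50.1 and 257 CPM in replicates 1, 2 and 3. In such mixed RNA, fewer cells of a type and less RNA per cell cannot be told apart.

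Transcripts of the class I pathway were abundant, although only part of the family contributed. The 33 genes took 65283, 105054 and 105241 counts, or 0.719% (95% Wilson interval 0.714 to 0.725%), 0.757% (0.752 to 0.761%) and 0.759% (0.755 to 0.764%) of replicates 1, 2 and 3. Of them, 30 had a sum of at least 10 counts and were tested, while H2-M10.2, H2-M10.5 and H2-Bl did not reach it. In edgeR's quasi-likelihood test with Benjamini-Hochberg adjustment over 15490 genes, 23 members lay above 1 CPM, as did 68.6% of all genes tested. Above 50 CPM lay 17 members, against 19.9% of all genes tested, and below 50 CPM lay 11, against 66.7% of all genes tested. Members above 50 CPM were both classical genes, B2m, 6 of 17 tested class Ib genes and 8 of 9 loading and control genes. The median over the 33 members was 40.7 CPM per kilobase, and over all 17857 genes it was 3.28.

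The classical heavy chains H2-K1 and H2-D1, which encode the Kb and Db molecules that present peptides to CD8 T cells, were the highest heavy chain genes in all 3 libraries. H2-K1 was read at 879, 1058 and 1124 CPM per kilobase in replicates 1, 2 and 3, and H2-D1 at 611, 721 and 759 CPM per kilobase. Both were lowest in replicate 1 and highest in replicate 3, and their ranges did not overlap each other or that of any class Ib gene. By mean level per kilobase they ranked 21 and 29 among the genes tested. Both lay above 50 CPM, by 5.07 (H2-K1) and 4.60 (H2-D1) on the log2 scale of CPM (edgeR adjusted p = 2.69e-08 and 3.73e-08). H2-K1 is Entrez gene 14972, chromosome 17, 33996012 to 34000619, and H2-D1 is Entrez gene 14964, chromosome 17, 35263094 to 35267497 in GRCm38.

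**Figure D1:**
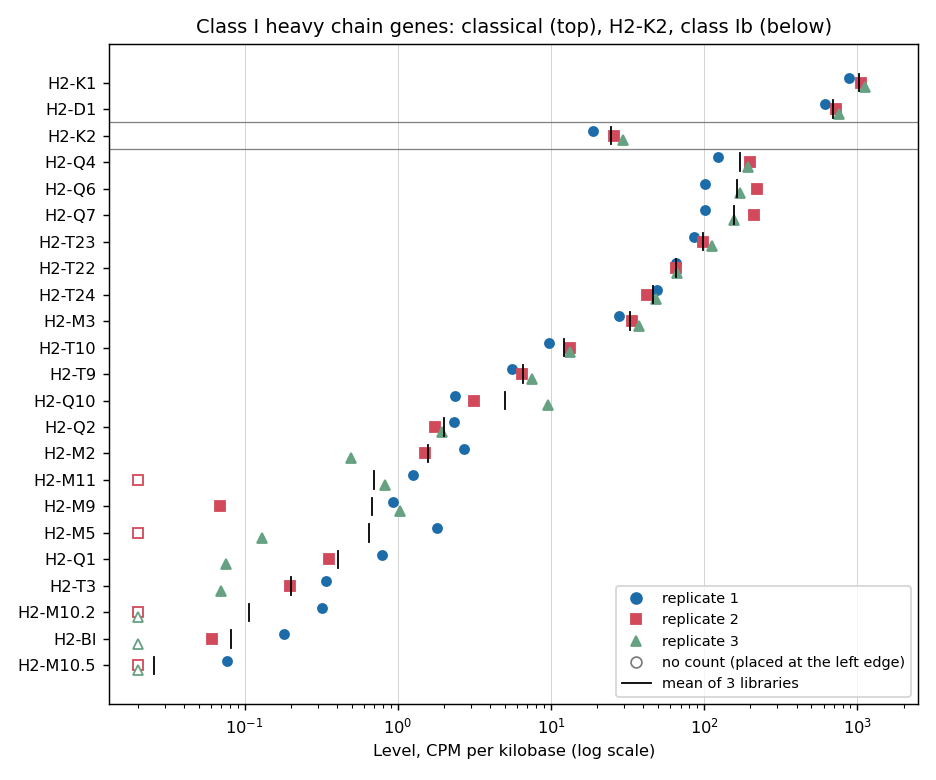
Level of each class I heavy chain gene in the 3 libraries, in CPM per kilobase on a log axis, with the mean as a black line; open symbols at the left edge are libraries with no count. H2-K1 and H2-D1 lie above 600 CPM per kilobase in every library, and 8 class Ib genes lie between 9.74 and 220 CPM per kilobase. The lowest, H2-M10.2, H2-Bl and H2-M10.5, have 3, 2 and 1 counts in replicate 1, and only H2-Bl has a count elsewhere.

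The proportion of H2-K1 to H2-D1 was nearly the same in each library. Per kilobase, H2-K1 exceeded H2-D1 by 1.44, 1.47 and 1.48 times in replicates 1, 2 and 3, a mean log2 ratio of 0.55 ± 0.02 (SD, n = 3). The difference had 1 direction in all 3 libraries, with p = 0.25 in a two-sided exact sign-flip permutation test, the lowest value possible with 3 libraries. Adjusted over the 4 gene pairs compared, it was 0.25 as well. Between the same libraries the level of H2-K1 itself varied by 1.28 times and that of H2-D1 by 1.24 times. H2-K2, annotated as a transcribed pseudogene of the K region, was read far lower, at 18.8, 25.7 and 29.5 CPM per kilobase. It lay below 50 CPM (edgeR adjusted p = 0.0193), a call that was lost in the DESeq2 Wald test (adjusted p = 0.0651) and without replicate 3 (edgeR adjusted p = 0.0522), with 0.00373 to 0.0651 over all alternatives.

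Close relatives within the class I region can share reads, and the treatment of reads with several matches is not given in the sources used here. In GENCODE M21 transcripts, 9.63% of the distinct 50-base stretches of H2-K1 and 12.8% of those of H2-D1 also occurred in another gene. The overlap was larger for class Ib genes, with 53.5% for H2-T22, 50.4% for H2-T10, 36.4% for H2-Q4, 34.97% for H2-Q6 and 26.5% for H2-Q7. H2-T22 and H2-T10 shared mostly with each other, so their split is the least certain of the family. H2-T23 shared 14.5% and H2-M3 0.576%, while B2m, Canx and H2-M11 shared none. Stretches were matched on both strands, so antisense transcripts count among the other genes. H2-T9 had no GENCODE M21 entry under its symbol and no entry in the RefSeq gene table used here. Some exons also lie opposite antisense transcripts, and the strand setting of the counting is not given: 29.4% of the exon bases of H2-T22 overlap A930015D03Rik, 27.1% of H2-T10 overlap BC023719 and 19.1% of H2-Q4 overlap Gm11131.

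**Figure D2:**
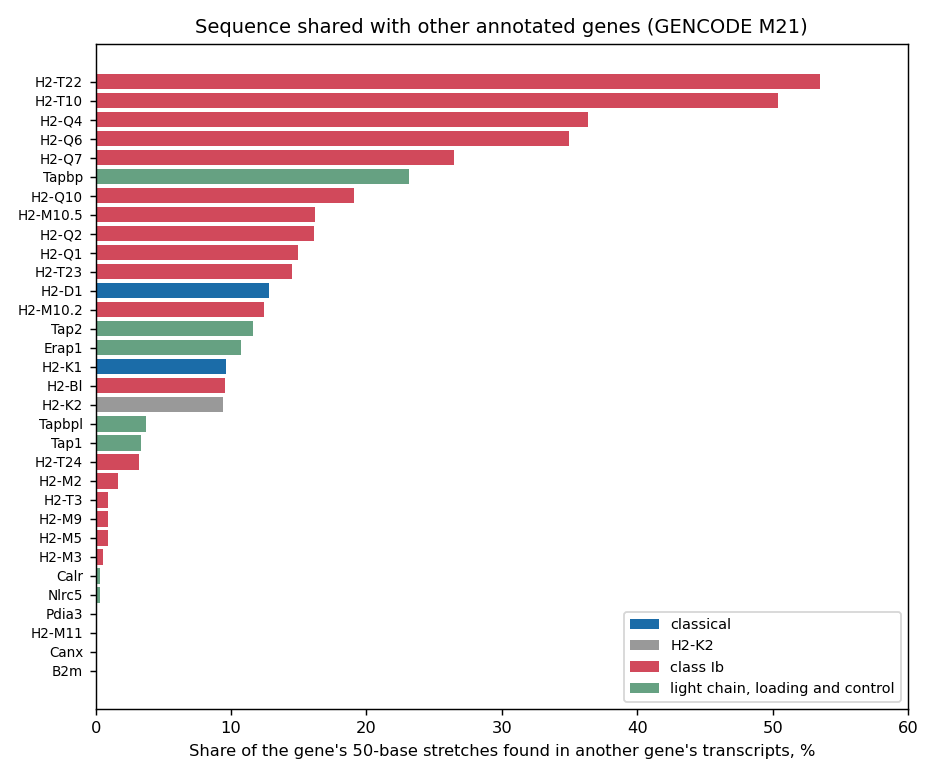
Share of the distinct 50-base stretches of each gene's annotated transcripts that also occur in transcripts of another gene, in percent, for the 32 members with GENCODE M21 transcripts. H2-T22 and H2-T10 exceed 50%, the classical genes H2-K1 and H2-D1 lie at 9.63% and 12.8%, and B2m and Canx are at 0.

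Class Ib transcripts made up a sizeable part of the heavy chain signal, and most came from the Q region. Class Ib genes took 26.2% (95% Wilson interval 25.7 to 26.7%), 30.6% (30.2 to 31.0%) and 27.9% (27.5 to 28.3%) of heavy chain counts in replicates 1, 2 and 3, a mean of 28.2 ± 2.22% (SD, n = 3). H2-Q4, H2-Q6 and H2-Q7 alone took 52.7%, 67.1% and 60.7% of the class Ib counts. H2-Q7 encodes Qa-2, a molecule anchored by a lipid tail, to which H2-Q6 is closely related.

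H2-Q4 was read at 123, 199 and 193 CPM per kilobase in replicates 1, 2 and 3, H2-Q6 at 101, 220 and 171, and H2-Q7 at 101, 210.0 and 156. All 3 were lowest in replicate 1 and highest in replicate 2, and their ranges overlapped, so their order was not resolved. Each lay above 50 CPM (edgeR adjusted p = 1.72e-06, 1.35e-04 and 1.14e-05 for H2-Q4, H2-Q6 and H2-Q7). Relative to the mean of the other libraries, replicate 2 held 1.62 times as much H2-Q6 and 1.64 times as much H2-Q7, whereas it held 1.06 times as much H2-K1. The CD8 and NK markers had the same order: both Cd8 genes and all 5 NK markers were highest in replicate 2 and lowest in replicate 1, with none at 0. This order was common, as 54.6% of all 3084 genes above 50 CPM were highest in replicate 2 and 74.5% lowest in replicate 1. Over all genes tested, 32.0% were highest in replicate 2. The part of the CD8 and NK markers in the level of H2-Q6 and H2-Q7 was not tested.

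The T region genes were steadier. H2-T23, which encodes Qa-1, the class Ib molecule that shows leader peptides of other class I chains to the CD94-NKG2A receptor, was read at 85.9, 98.0 and 111 CPM per kilobase. H2-T22, whose product is a ligand for some gamma-delta T cells, was read at 65.3, 65.0 and 66.5 CPM per kilobase, the most even of all tested members, with 1.02 times between its highest and lowest library. H2-T24 was read at 48.9, 42.5 and 48.3 CPM per kilobase. These ranges did not overlap, and all 3 genes lay above 50 CPM (edgeR adjusted p = 6.32e-05, 1.01e-04 and 3.42e-04 for H2-T23, H2-T22 and H2-T24). H2-T10, a relative of H2-T22 annotated as a transcribed pseudogene in this strain, was read at 9.74, 13.3 and 13.3 CPM per kilobase. It lay below 50 CPM (edgeR adjusted p = 0.0277), but not in the DESeq2 Wald test (adjusted p = 0.111), without replicate 1 (edgeR adjusted p = 0.0627) or without replicate 3 (0.119), with 0.0102 to 0.119 over all alternatives.

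Of the M region, H2-M3 alone was read at a substantial level. H2-M3, which presents peptides that begin with formylmethionine, a mark of bacterial and mitochondrial proteins, was read at 27.7, 33.6 and 37.3 CPM per kilobase, lowest in replicate 1. It was above 1 CPM and was not separated from 50 CPM (edgeR adjusted p = 0.580). Its range overlapped neither that of H2-T24 above it nor that of H2-T10 below it. The other 4 tested M genes, H2-M2, H2-M5, H2-M9 and H2-M11, had means of 0.695 to 2.39 CPM, or 0.645 to 1.56 CPM per kilobase. Of the 4, 0 were called above 1 CPM in edgeR's test, in DESeq2 or in limma, also at an unadjusted p under 0.05. Over all genes tested, 68.6% were called above 1 CPM in edgeR's test. H2-M2, at 2.39 CPM, was not separated from 1 CPM (edgeR adjusted p = 0.0932). With edgeR's own expression filter, H2-M2 was called above it.

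The remaining class Ib genes were low. H2-T9 was read at 5.53, 6.48 and 7.53 CPM per kilobase and lay above 1 CPM (edgeR adjusted p = 1.57e-06) and below 50 CPM (4.04e-04). H2-Q10, known as a secreted product of liver, was read at 2.37, 3.15 and 9.49 CPM per kilobase. It was highest in replicate 3, by 3.44 times over the mean of the others, and was called above 1 CPM and below 50 CPM (edgeR adjusted p = 2.13e-05 and 0.00232). All 6 neutrophil markers were highest in replicate 3 too, as were 3 of 4 plasma cell markers and 22.8% of all genes tested. The neutrophil markers summed to 172, 67.8 and 693 CPM in replicates 1, 2 and 3, with Ly6g at 0 counts in replicates 1 and 2. Their sum was lowest in replicate 2, whereas H2-Q10 was lowest in replicate 1. The part of these markers in the level of H2-Q10 was not tested. H2-Q10 shared 19.1% of its 50-base stretches with other genes, mostly H2-Q7. H2-M2 had the largest ratio between libraries among members with a mean of at least 1 CPM, with 2.70, 1.49 and 0.497 CPM per kilobase in replicates 1, 2 and 3.

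H2-T3, which encodes the thymus leukaemia antigen, displayed by gut epithelium, had 7, 6 and 2 counts and a mean of 0.202 CPM per kilobase. H2-Q2 averaged 2.00 ± 0.283 and H2-Q1 0.404 ± 0.357 CPM per kilobase (SD, n = 3). H2-M10.2 and H2-M10.5, of a group used by vomeronasal neurons, had 3 counts and 1 count in replicate 1 and none in replicates 2 and 3, where a count of 0 allows up to 0.214 and 0.228 CPM. H2-Bl, a transcribed pseudogene, had 2, 1 and 0 counts. For scale, 578 olfactory receptor genes, which leukocytes rarely use, averaged 0.249, 0.0207 and 0.0495 CPM per kilobase, so replicate 1 carried the most of such signal. Of the 10 class Ib genes not called above 1 CPM, all but H2-M9 were highest in replicate 1, as were 45.2% of all genes tested. Some of these orders rest on few counts, such as 12, 0 and 11 for H2-M11. Of the 10, 2 exceeded the 95th percentile of the olfactory receptor genes in all 3 libraries, H2-Q2 and H2-M2.

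The light chain gene B2m had a higher mean level per kilobase than either classical heavy chain gene. Its range overlapped that of H2-K1, and its proportion to the classical genes differed between libraries. Not divided by gene length, the order was reversed, with means of 1037 CPM for B2m, 1679 CPM for H2-K1 and 1210 CPM for H2-D1. The order per kilobase thus rests on the deposited lengths. B2m was read at 1410, 856 and 1362 CPM per kilobase in replicates 1, 2 and 3, the highest mean of the 33 members (1209 ± 307 CPM per kilobase, SD, n = 3), ranked 18 among the genes tested. It was lowest in replicate 2, whereas H2-K1 and H2-D1 were lowest in replicate 1. Per kilobase, B2m stood at 0.946, 0.481 and 0.723 times the sum of H2-K1 and H2-D1 (mean 0.717 ± 0.232). B2m lay above 50 CPM in edgeR's test (adjusted p = 6.92e-08). It is Entrez gene 12010, chromosome 2, 122147687 to 122153082 in GRCm38, and has a deposited length of 858 bases.

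**Figure D3:**
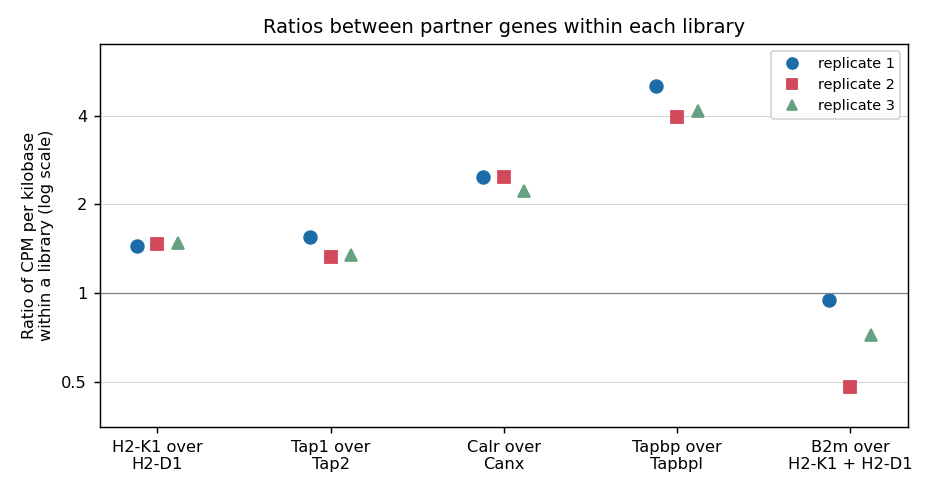
Ratio of CPM per kilobase between partner genes within each library, on a log axis, with 1 symbol per library and a line at equality. H2-K1 over H2-D1 keeps within 1.44 to 1.48, whereas B2m over the sum of H2-K1 and H2-D1 spans 0.481 to 0.946.

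Short genes above 50 CPM were more often lowest in replicate 2 than long ones, and B2m was lowest there too. Among 91 genes of any kind that lay above 50 CPM and were shorter than 1 kilobase, the median gene was read in replicate 2 at 0.765 times its mean in the other libraries, and 73.6% were lowest there. Among 1624 such genes of 4 kilobases or more the median was 1.184 times. B2m itself was at 0.618 times. H2-Q6, with 981 bases, and H2-Q7, with 1536, went the other way, at 1.62 and 1.64 times, against medians of 0.765 for genes under 1 kilobase and 0.957 for those of 1 to 2 kilobases. This comparison was added after the values were seen, and the part of length in the level of B2m was not tested.

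**Figure D4:**
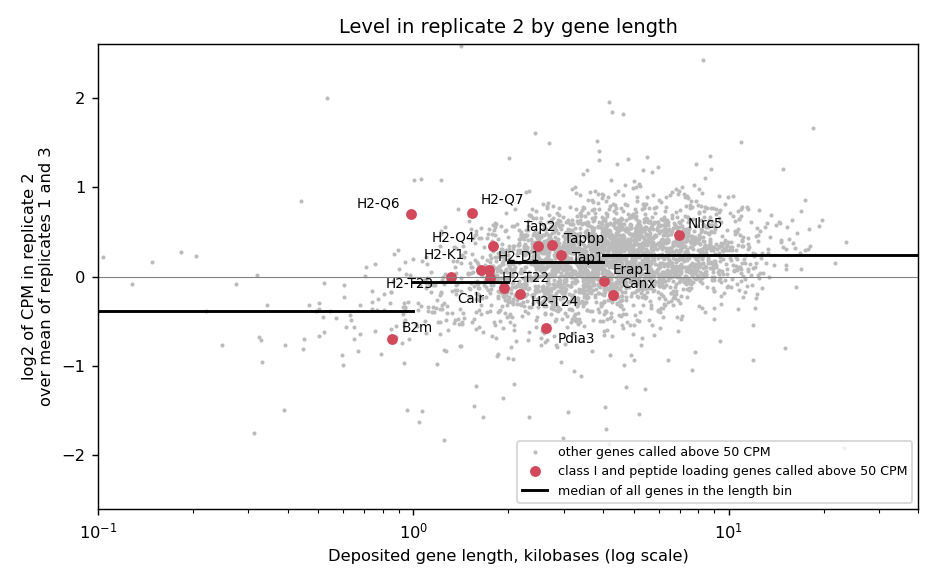
Log2 of the CPM in replicate 2 over the mean of replicates 1 and 3, against deposited gene length on a log axis, for 3084 genes called above 50 CPM (11 fall outside the axes); black lines are medians of 4 length bins. B2m lies below 0 with most short genes, H2-Q6 and H2-Q7 lie above the medians of their bins, and Pdia3 lies below that of its bin.

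The peptide transporter and its tapasin partners were all present, with Tap1 above Tap2. Tap1, of the chain pair that pumps peptides into the endoplasmic reticulum, was read at 62.8, 81.6 and 75.2 CPM per kilobase and Tap2 at 40.7, 61.3 and 55.9. Both were lowest in replicate 1 and highest in replicate 2. Tap1 exceeded Tap2 by 1.55, 1.33 and 1.34 times (mean log2 ratio 0.49 ± 0.12, exact sign-flip permutation p = 0.25, adjusted 0.25). Tapbp, which encodes tapasin, the bridge between transporter and heavy chain, was read at 75.5, 106 and 90.8 CPM per kilobase. Tapbpl, which encodes its relative TAPBPR, a peptide editor, was read at 15.04, 26.9 and 21.9 CPM per kilobase. Tapbp thus exceeded Tapbpl by 5.02, 3.94 and 4.14 times (mean log2 ratio 2.12 ± 0.19, exact sign-flip permutation p = 0.25, adjusted 0.25).

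Tap1, Tap2 and Tapbp lay above 50 CPM (edgeR adjusted p = 3.13e-06, 1.08e-04 and 2.10e-06), and Tapbpl was not separated from it (0.407). On the opposite strand, Psmb9 covers 3.87% of the exon bases of Tap1, Gm15821 covers 14.1% of those of Tap2 and Gm19412 covers 24.9% of those of Tapbp.

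The chaperones of folding followed another order between libraries than the transporter genes, and by mean CPM per kilobase Calr and Pdia3 were the highest of the loading genes, ahead of Tapbp and Canx. Calr, which encodes the soluble lectin chaperone calreticulin, was read at 254, 203 and 191 CPM per kilobase. Canx, which encodes the membrane-bound calnexin, was read at 102, 81.6 and 85.9. Pdia3, which encodes ERp57, the disulfide isomerase of the loading complex, was read at 147, 88.7 and 118. All 3 were highest in replicate 1, unlike Tap1, Tap2, Tapbp, Tapbpl and Nlrc5, which were lowest there. Calr exceeded Canx by 2.48, 2.48 and 2.22 times (mean log2 ratio 1.26 ± 0.09, exact sign-flip permutation p = 0.25, adjusted 0.25). In counts not divided by gene length the mean log2 ratio was 0.11, so the size of this difference rests on the deposited lengths of 1943 bases for Calr and 4289 bases for Canx. These chaperones serve all glycoproteins, and each lay above 50 CPM in edgeR's test (adjusted p = 3.56e-07 for Calr, 3.97e-07 for Canx and 1.54e-06 for Pdia3). Also highest in replicate 1 were all 6 macrophage, 5 erythroid, 6 B cell and 6 melanoma markers, as were 45.2% of all genes tested. The melanoma markers summed to only 9.19, 0.571 and 3.04 CPM in replicates 1, 2 and 3. The macrophage marker Vsig4 and every melanoma marker but Pmel had 0 counts in replicate 2. The part of these markers in the levels of Calr, Canx and Pdia3 was not tested.

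Erap1, which encodes the aminopeptidase that trims peptides to length, was even at 38.6, 39.8 and 43.7 CPM per kilobase, with 11.5% of its exon bases opposite Cast. Nlrc5, the class I transactivator, was read at 36.7, 74.6 and 71.4 CPM per kilobase. Its level in replicate 1 was 0.503 times the mean of the others, against a median of 0.769 for genes of 4 kilobases or more, and Nlrc5 has 6945 bases. Both genes lay above 50 CPM (edgeR adjusted p = 9.73e-06 for Erap1 and 1.32e-06 for Nlrc5). Nlrc5 is Entrez gene 434341, chromosome 8, 94434335 to 94527272 in GRCm38.

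**Figure D5:**
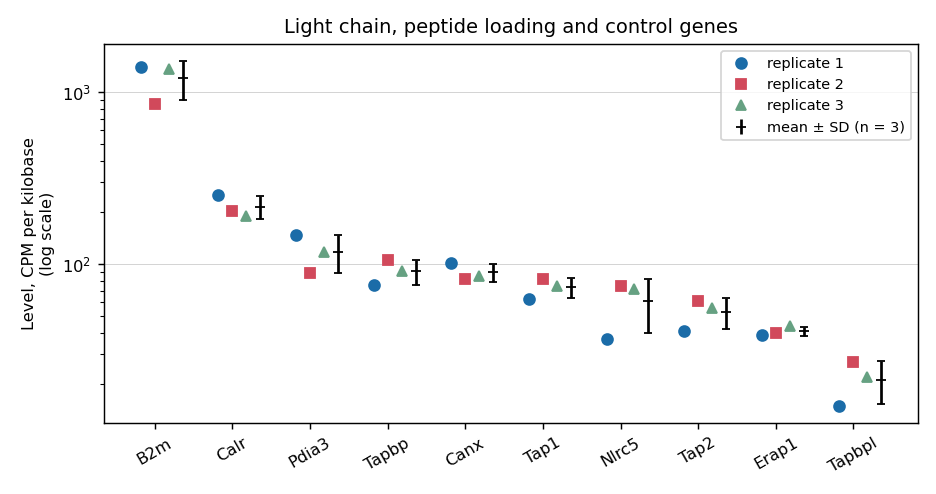
Level of B2m and of the 9 peptide loading and control genes in each library, in CPM per kilobase on a log axis, with mean ± SD (n = 3) beside each. B2m lies between 856 and 1410, the chaperones Calr, Canx and Pdia3 are highest in replicate 1, and Nlrc5 is at 36.7 there against 74.6 and 71.4 in replicates 2 and 3.

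Among the members above 50 CPM, 5 were highest in replicate 1, 7 in replicate 2 and 5 in replicate 3. Over all 3084 genes above 50 CPM these shares were 8.88%, 54.6% and 36.5%. The share highest in replicate 1 differed by gene length. It was 41.8% under 1 kilobase, 24.3% at 1 to 2, 8.23% at 2 to 4 and 4.74% at 4 kilobases or more. Those highest in replicate 1 were B2m, Calr, Canx, Pdia3 and H2-T24, with 858, 1943, 4289, 2643 and 2182 bases. H2-Q4, H2-Q6, H2-Q7, Tap1, Tap2, Tapbp and Nlrc5 were highest in replicate 2, and H2-K1, H2-D1, H2-T22, H2-T23 and Erap1 in replicate 3.

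Other genes of the pathway were read at varied levels, from which members of each list are named by the highest and lowest mean CPM. For scale, 19.9% of all genes tested lay above and 66.7% below 50 CPM. In the list of 5 immunoproteasome and PA28 genes, which shape the peptides before transport, 2 lay above and 1 below 50 CPM. Psme1 (293 ± 3.26 CPM, SD, n = 3) and Psmb8 (248 ± 20.99) were highest, and Psmb9 (39.6 ± 5.73) and Psme2 (18.3 ± 1.38) lowest. Of 14 interferon pathway and RFX regulators, 10 lay above and 2 below 50 CPM. The kinase gene Jak1 (1344 ± 360.5 CPM) was highest, and Rfxap (27.1 ± 6.09) and Rfxank (25.3 ± 2.48), which encode subunits of the RFX complex that works with NLRC5, lowest. Of 12 genes of glycoprotein quality control and peptide trimming, 8 lay above and 2 below 50 CPM, led by Lnpep (519 ± 67.8 CPM), an endosomal aminopeptidase, and Hspa5 (429 ± 116), the chaperone BiP. Abcb9 (20.7 ± 1.42) and Sec61b (17.5 ± 2.67) were lowest.

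Class I-like genes outside the H2 region had a median of 5.43 CPM over the 10 measured, against 7.25 CPM over all 17857 genes. Of 12 in the list, 9 were tested, of which 5 lay above 1 CPM and 8 below 50 CPM. Over all genes tested, 68.6% lay above 1 CPM, 66.7% below 50 CPM and 19.9% above 50 CPM. Of the list, 0 lay above 50 CPM in edgeR's test, in DESeq2 or in limma, also at an unadjusted p under 0.05. Fcgrt, the neonatal Fc receptor for antibody and albumin, averaged 26.1 ± 9.87 CPM and Cd1d1, which presents lipids to NKT cells, 16.3 ± 4.71 CPM (SD, n = 3). Procr and Raet1e had counts in replicate 1 alone, at 1.48 and 0.845 CPM. Receptors for class I differed by library: 9 of the 10 measured were highest in replicate 2. So were 32.0% of all genes tested and 54.6% of genes called above 50 CPM. The list includes Cd8a and Cd8b1, which are also the CD8 markers used above. Cd8a was read at 8.67, 526 and 135 CPM and Cd8b1 at 18.2, 421 and 123 CPM in replicates 1, 2 and 3, while Klra1 (5.93 ± 4.63 CPM) and Klrc2 (6.09 ± 6.33 CPM) were the lowest. By contrast, the genes for the classical ligands of CD8, H2-K1 and H2-D1, varied by no more than 1.28 times between the same libraries.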

How the data were processed

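RNA of 3 libraries of sorted node cells was analysed. The authors deposited whole-number read counts per gene, along with Entrez identifiers and gene lengths. Per the submitters' processing notes, bcl2fastq, STAR 2.75, featureCounts and DESeq2 1.18.1 were used with mm10, with no role or order given; the annotation release, strand setting, multi-match treatment and gene filter are not given in the sources used here. Libraries were made from total RNA with a stranded low-input kit, per the labels' protocols, so nascent and noncoding RNA also count.

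CPM came from edgeR 4.0.16 after TMM scaling (factors 1.04, 1.01 and 0.950). The 15490 genes whose counts summed to at least 10 were tested against 1 and 50 CPM with edgeR's quasi-likelihood test; the design was an intercept alone, which edgeR's own test function does not take, so its steps were followed by hand on edgeR's fit with the offset as the null mean; tests were two-sided, and the threshold was an adjusted p of 0.05. The test was checked on simulated counts, where the estimate was required to follow the set level at 50 CPM only. Of the 15490 genes, 0 were called below 1 CPM, so a gene not called above 1 CPM was not shown to lie below it. Within-library ratios were tested by exact sign flips (SciPy 1.17.1). Alternatives were DESeq2 1.42.0, limma 3.58.1, other scalings and filters, and leaving out each library. Wilson intervals and the limit for a count of 0 (3 counts) cover counting error only. Mitochondrial ribosomal RNA took 17.8%, 6.22% and 13.1% of counts. Shared 50-base stretches were counted on both strands in GENCODE M21 transcripts, whose build is GRCm38; the read length is not given in the sources used here. All members were accounted for. Values in every library are given for the classical genes, B2m, the 8 highest class Ib genes per kilobase, all loading and control genes and the 3 members of at least 1 CPM with the largest ratio between libraries (H2-M2, H2-Q10 and H2-Q6); any others were named after their values were seen. Of each other list the 2 highest and 2 lowest are named, except for 1 gene that is not reported here. Members and lists were chosen with earlier results of these data known. Public data on dendritic cells mentioned in the design were not analysed here.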

Additional observations from a re-analysis of the deposited data

How the results depend on the processing

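The 17 members above 50 CPM were the same genes under every alternative run: size factors of DESeq2 (RLE), library totals alone, no filter, edgeR's expression filter, robust empirical Bayes, the DESeq2 Wald test, limma voom and leaving out each library. The 23 above 1 CPM were also kept in each, and edgeR's filter added H2-M2 and H2-Q2, for 25. The 11 members below 50 CPM were less stable, with 3 to 10 when 1 library was left out (3 without replicate 3, when 36.8% of all genes were called below it, against 66.7% with all 3 libraries) and 6 with edgeR's filter, which tested 25 members and not 30. Of 292 values of single members under an alternative, 280 kept their direction and call, 12 lost a call below 50 CPM and 0 changed direction. All 4 gene pairs kept their direction without length scaling, with a pseudocount and without each library. The class Ib share ranged from 27.0 to 29.3% over the left-out libraries and was 30.3% per kilobase, 29.0% with H2-K2 added and 28.6% with pooled counts. No paired analysis was possible because the libraries form 1 group. A reading per kilobase depends on the deposited lengths, whose derivation is not given. Depth limits the rarest class Ib genes: H2-M10.2, H2-M10.5 and H2-Bl cannot be told from 0 at 9077195 to 13885509 counts.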
